A study of Mus musculus with 18 samples.

Results

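The dimeric transcription factor AP-1 was followed through its 7 subunit genes Fos, Fosb, Fosl1, Fosl2, Jun, Junb and Jund, together with the related stress factor gene Atf3. These 8 genes were chosen by name, with all of their probe sets, out of 18193 genes on the array, and they had 12 probe sets of 45037 that were not array controls. Fosl1, Fosl2, Jun and Jund had 2 probe sets each, and the other 4 genes had 1. Where a gene had 2, the one with the higher mean signal stood for the gene and the other is given beside it.

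AP-1 binds DNA as a pair of proteins joined through a leucine zipper. JUN proteins pair with each other, with FOS proteins and with ATF proteins, whereas FOS proteins need a JUN partner. Fos, Junb and Atf3 are immediate early genes, which cells switch on without making new protein first, and their RNAs are short-lived. In liver, Jun is known for its part in regeneration after partial hepatectomy, and Junb is a known target of STAT3, the transcription factor that IL-6 activates. HGF acts through the receptor tyrosine kinase Met and the ERK kinases, which act on the Fos promoter.

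RNA came from primary hepatocytes of male C57BL/6N mice aged 8 to 12 weeks, from 1 animal or a pool of up to 3. All cells were plated on collagen I in medium with serum, dexamethasone and insulin, kept 24 h without serum, and then 4 h without dexamethasone before stimulation. Unstimulated cells gave 6 of the 18 arrays, at -5, 0, 4, 8, 12 and 24 h. Cells with 40 ng/ml rhIL-6 alone gave 4, at 1, 2, 3 and 4 h, and the remaining 8 held cells with rhIL-6 plus 40 ng/ml rmHGF at 5, 6, 7, 8, 9, 10, 12 and 24 h. HGF was added at 4 h, so the 5 h array had seen HGF for 1 h, and the controls stayed unstimulated throughout. Each condition and hour had 1 array, so the hours of a stimulus stood in for replicates, and HGF could not be told apart from a longer time in IL-6. No source says which dishes shared an animal, so all p-values measure the spread between these dishes and hours. The series asked how the transcriptome changes when IL-6 comes before HGF.

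Fos, Junb and Atf3 were high in the first hour of a stimulus and Jun was not. The stretches just before the RefSeq start of these 4 genes were therefore picked, after the values had been seen, and are shown. Each holds the 250 bases before the start, 5′ to 3′ on the gene's strand in build GRCm38.p6, and the capitals mark TGACG on either strand, a part of the cAMP response element TGACGTCA, which ATF and JUN-ATF dimers bind. Fos lies on the plus strand at chr12:85473640-85473889, Junb on the minus strand at chr8:84978749-84978998, Atf3 on the minus strand at chr1:191183334-191183583 and Jun on the minus strand at chr4:95052223-95052472.
Fos: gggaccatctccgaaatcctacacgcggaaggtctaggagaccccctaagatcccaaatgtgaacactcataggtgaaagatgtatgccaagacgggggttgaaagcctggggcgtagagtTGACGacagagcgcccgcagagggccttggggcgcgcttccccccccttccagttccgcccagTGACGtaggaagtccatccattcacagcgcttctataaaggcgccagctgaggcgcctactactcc
Junb: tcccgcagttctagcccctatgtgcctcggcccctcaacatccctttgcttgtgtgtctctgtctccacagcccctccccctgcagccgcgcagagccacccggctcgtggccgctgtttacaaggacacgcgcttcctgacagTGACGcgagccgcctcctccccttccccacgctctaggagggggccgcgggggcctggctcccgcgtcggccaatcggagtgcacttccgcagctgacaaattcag
Atf3: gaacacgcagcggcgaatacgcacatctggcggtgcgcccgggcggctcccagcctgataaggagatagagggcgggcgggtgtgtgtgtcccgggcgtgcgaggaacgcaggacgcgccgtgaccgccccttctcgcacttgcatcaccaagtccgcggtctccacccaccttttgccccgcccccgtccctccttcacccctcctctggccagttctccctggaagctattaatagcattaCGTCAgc
Jun: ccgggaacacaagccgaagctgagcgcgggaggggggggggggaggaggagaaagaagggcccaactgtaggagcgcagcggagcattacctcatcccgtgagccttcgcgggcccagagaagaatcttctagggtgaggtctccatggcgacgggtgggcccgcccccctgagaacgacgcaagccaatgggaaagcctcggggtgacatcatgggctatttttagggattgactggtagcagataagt
The motif TGACG was found 2 times in the Fos window, with its first base 129 and 66 bases before the start, and 1 time each in those of Junb (106 bases before) and Atf3 (7 bases before). The Fosb window held it too (60 bases before), which made 4 of the 7 genes with a window, and Jun, Jund and Fosl2 had none. Fosb stayed dim, and Fosl2 was higher by 0.52 log2 at 5 h than at 4 h of IL-6. Whether the motif goes with the first-hour values was not tested. Of 32851 RefSeq windows of this length 17.8% held it on either strand. The full TGACGTCA (1.55% of all windows), the AP-1 motif TGAGTCA (4.46%), the STAT-type motif TTCNNNGAA (7.02%) and the CArG box bound by SRF (1.47%) were each found in 0 of the 7 windows. Such matches describe letters only, and each window is short. Only these exact spellings were searched, so 0 does not show that a gene lacks such a site, inside or outside the window.

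All values below are log2 signals on the deposited scale, with array medians between 5.47 and 5.57 and a mean correlation of each array with the others between 0.985 and 0.994. Precision is limited by how few arrays there were. Fosb lay below the array median on all 18 arrays, as did the second Jund probe set. Hepatocyte markers fitted the label, with 8 of 9 above the array median on every array from 0 h on and a mean of 9.56 to 11.35 over the arrays. Of 15 markers of Kupffer cells, the liver macrophages, 12 were above it on every array from 0 h on, with means of 7.14 to 7.78. Of 10 liver endothelial markers, 10 were above it on every control and IL-6 array and 8 on every IL-6 plus HGF array. Within each group of arrays 5 or 6 of 10 stellate cell and fibroblast markers were, and 3 of 5 cholangiocyte markers. For bulk RNA of this kind, fewer cells of a type and less RNA per cell cannot be told apart.

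**Figure D1:**
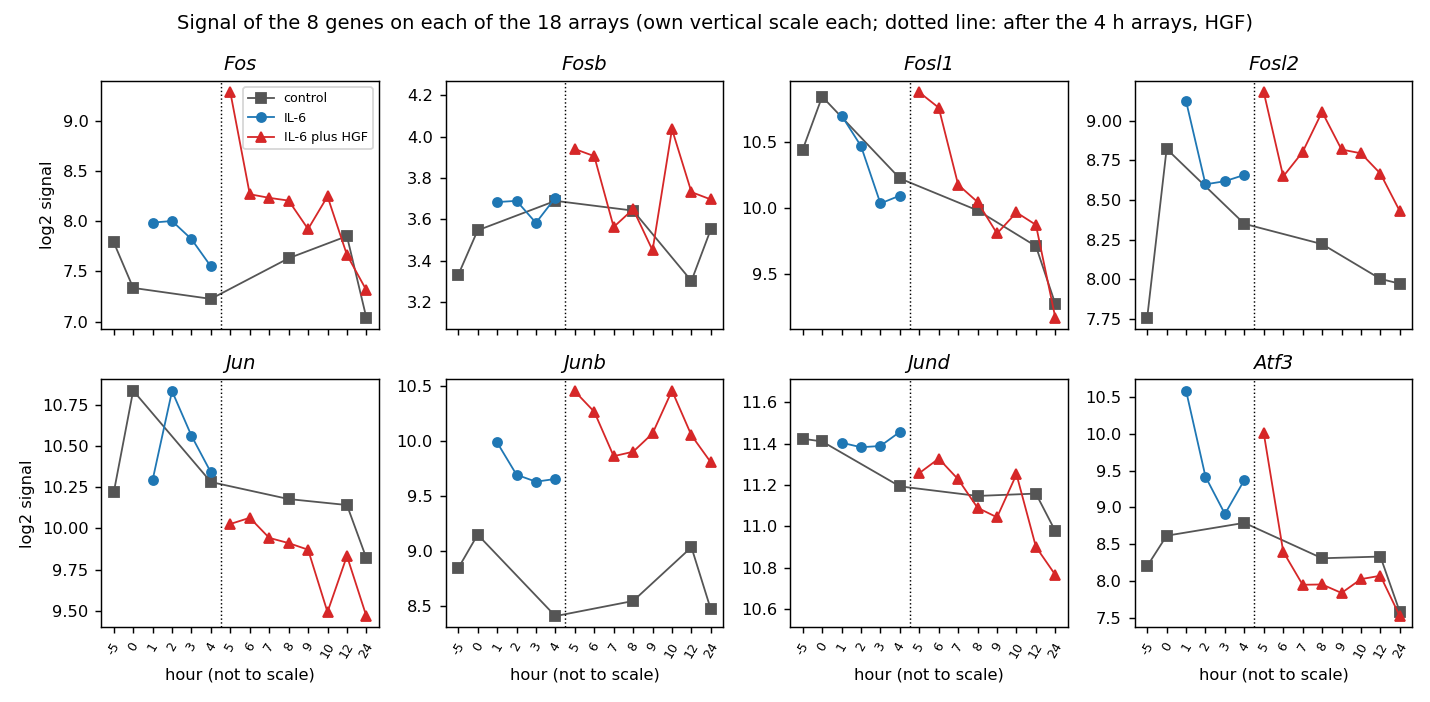
Log2 signal of each gene (vertical axis, own scale in each panel) against hour (horizontal axis, categories not to scale) for control, IL-6 and IL-6 plus HGF, with 1 point per array and a dotted line after the 4 h arrays. Junb is the gene whose 12 stimulated arrays all lie above the controls, while Fos is highest at 5 h (9.28) and Atf3 at 1 h (10.58) and again at 5 h (10.00).

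Junb, the JUN subunit often held to restrain growth, was the gene of the 8 that was high on every stimulated array. In the controls it read 9.15 at 0 h, 8.41 at 4 h, 8.55 at 8 h, 9.04 at 12 h and 8.47 at 24 h, after 8.85 at -5 h. With IL-6 alone it read 9.98, 9.69, 9.63 and 9.65 at 1, 2, 3 and 4 h. With HGF added it ran from 9.80 at 24 h through a median of 10.06 to 10.45, reached at 5 h and again at 10 h. The lowest stimulated array (9.63) thus lay above the highest control, and the same was true of 64 of the 18193 genes (0.352%). No other gene of the 8 had stimulated arrays that all cleared the controls.

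Fos, the founding FOS subunit, had its highest signal 1 h after HGF. It read 7.34, 7.23, 7.63, 7.85 and 7.04 in the controls from 0 to 24 h and 7.79 at -5 h. Under IL-6 it read 7.99, 8.00, 7.82 and 7.55 from 1 to 4 h. It stood at 9.28 at 5 h, then at 8.27, 8.23, 8.20, 7.92 and 8.25 from 6 to 10 h, and at 7.66 at 12 h and 7.31 at 24 h. All arrays from 5 to 10 h lay above every control, and those at 12 and 24 h lay among them. This span of hours was read off the values, and its share over all genes was not counted.

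Fosl1, which encodes Fra-1, a FOS subunit without the strong activation domain of FOS, went down with time in control and stimulated cells. Its controls went from 10.84 at 0 h through 10.22, 9.98 and 9.71 to 9.28 at 24 h. Under IL-6 it read 10.70, 10.47, 10.03 and 10.09. After HGF it read 10.87 at 5 h and 10.75 at 6 h, then 10.17 at 7 h, 9.97 at 10 h and 9.17 at 24 h. Stimulated and control arrays overlapped over their whole range, and the second probe set ran in parallel (r = 0.99 over the 17 arrays from 0 h on).

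Fosl2, which encodes the related subunit Fra-2, stayed up under IL-6 plus HGF while the controls went down. Controls read 8.82, 8.35, 8.22, 8.00 and 7.97 from 0 to 24 h, and 7.76 at -5 h. With IL-6 it stood at 9.12 at 1 h and at 8.60, 8.62 and 8.66 after that. With HGF it ran from 8.43 at 24 h to 9.18 at 5 h, with a median of 8.80. From 4 h on no control reached a stimulated array, and only the control at 0 h did. For this split, too, the share of all genes was not counted. The second Fosl2 probe set, at 6.63 to 7.56, did not follow this course (r = 0.35).

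Fosb, a FOS subunit known for its rapid induction in neurons, stayed dim. Its signal lay between 3.30 and 3.69 in the controls from 0 h on, between 3.58 and 3.71 with IL-6 and between 3.45 and 4.04 with IL-6 plus HGF. Groups overlapped, and at this signal a small change could not have been measured well.

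Jun, the subunit that drives hepatocyte proliferation in the regenerating mouse liver, did not join Fos and Junb. In the controls it went from 10.84 at 0 h to 10.28, 10.18, 10.14 and 9.82. IL-6 arrays read 10.29, 10.83, 10.56 and 10.34 from 1 to 4 h. With HGF all 8 arrays lay between 9.47 and 10.06, below the 4 IL-6 arrays and below every control but that at 24 h. These arrays were also later than the IL-6 arrays, and the share of all genes placed like this was not counted. The second probe set gave the same order, with 8.45 to 8.94 under HGF against 9.04 to 9.69 under IL-6 (r = 0.96 between probe sets).

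Jund, the subunit that most resting cells hold in steady amounts, varied least among the brightly measured genes, by 0.69 from the lowest to the highest array from 0 h on. It ran from 10.98 to 11.41 in the controls, from 11.38 to 11.46 with IL-6 and from 10.77 to 11.33 with IL-6 plus HGF. The second probe set stayed between 4.64 and 5.16 and did not run with the first (r = 0.02).

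Atf3, a stress-induced factor that dimerizes with JUN proteins and is known to repress inflammatory genes, had the widest range, 3.06 from 0 h on. It read 8.62, 8.79, 8.31, 8.33 and 7.58 in the controls. At 1 h of IL-6 it stood at 10.58, and then at 9.42, 8.91 and 9.37. At 5 h it stood at 10.00, at 6 h at 8.40, and from 7 to 24 h between 7.52 and 8.07. It was thus highest at the first hour of each stimulus, and at 8, 12 and 24 h it lay below the control of the same hour.

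The first hour of each stimulus was set out as a step between single arrays, a description with no replicate. From the control at 0 h to IL-6 at 1 h, Atf3 was 3.91-fold higher (1.97 log2), Junb 1.78-fold (0.83) and Fos 1.57-fold (0.65), while Jun was 1.46-fold lower (-0.54). These were 3 genes of 8 higher by at least 0.5 log2 and 1 lower, against 0.973% and 0.737% of all genes. Only 2 genes of 18193 had a larger step up than Atf3. No control was taken at 1 h. In the controls from 0 to 4 h, 3 of the 8 were lower by at least 0.5 log2, Fosl1 (-0.62), Jun (-0.55) and Junb (-0.74), against 2.46% of all genes.

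**Figure D2:**
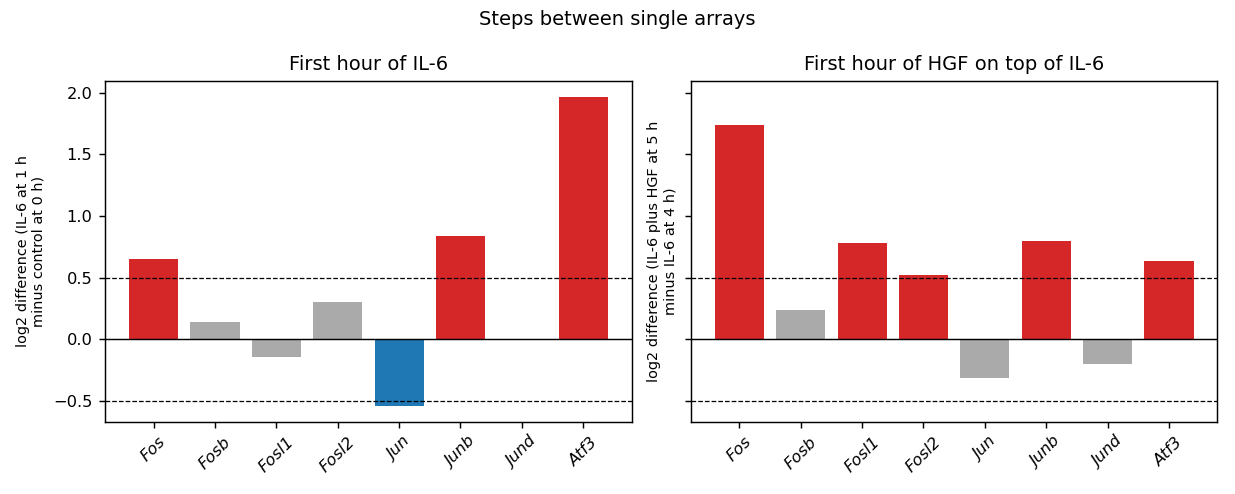
Log2 differences between single arrays (vertical axis) for the 8 genes: IL-6 at 1 h minus control at 0 h on the left, and IL-6 plus HGF at 5 h minus IL-6 at 4 h on the right, with dashed lines at 0.5 in both directions. Atf3 leads on the left at 1.97 and Fos on the right at 1.73, and Jun is below 0 in both.

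From IL-6 at 4 h to IL-6 plus HGF at 5 h, Fos was 3.33-fold higher (1.73 log2), behind 2 genes of 18193. Junb was 1.73-fold higher (0.79), Fosl1 1.71-fold (0.78), Atf3 1.55-fold (0.63) and Fosl2 1.43-fold (0.52), which made 5 of the 8, against 1.17% of all genes. Jun differed by -0.31 and Jund by -0.20. By 7 h 4 genes were lower than at 5 h by at least 0.5 log2, against 1.21% of all genes: Atf3 by -2.05, the largest decline of all 18193 genes, Fos by -1.05, Fosl1 by -0.70 and Junb by -0.59. Fosb differed by 0.24 from 4 to 5 h.

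Tested over hours, IL-6 alone (4 arrays) against the controls at 0 and 4 h gave no call among the 8. Here and below, limma's moderated fit was run on 18193 genes, its p-values were adjusted by Benjamini and Hochberg's method, and a gene was called under 0.05. The IL-6 comparison called 0.022% of all genes. It was fitted over 17 arrays in 4 groups, so its SEs also hold the spread of later controls and IL-6 plus HGF arrays. Junb was 1.94-fold higher, 9.74 ± 0.17 (SD, n = 4) against a mean of 8.78 (0.96 ± 0.22 log2, SE, unadjusted p = 0.000424, adjusted p = 0.453). Junb passed in a fit of only the IL-6 arrays and early controls with the hour as a covariate (1.04 ± 0.10, SE, adjusted p = 0.0226). Without the control at 4 h, which left 1 early control, the difference was 0.59. Atf3 differed by 0.87 ± 0.52 and Fos by 0.56 ± 0.36 (adjusted p = 1 each). Each was above both early controls on 4 of 4 IL-6 arrays, but the share of all genes doing so was not counted. Without the 1 h array Atf3 differed by 0.53. Jun (-0.05), Jund (0.11), Fosl1 (-0.21), Fosl2 (0.16) and Fosb (0.05) had adjusted p = 1 as well. On the same arrays the mean of 15 Kupffer cell markers was 7.20 to 7.33 with IL-6 against 7.57 and 7.78 in the early controls, with 2 of 15 markers above control. The mean of 4 nuclear long RNAs was 8.71 to 9.01 against 7.83 and 9.09. Their part in these differences was not tested.

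The 3 hours after HGF (5 to 7 h) against the 4 hours of IL-6 alone gave 0 calls among the 8, and 0.511% of all genes were called. Fos differed by 0.76 ± 0.23 (SE, adjusted p = 0.168), Junb by 0.45 ± 0.14 (0.166) and Jun by -0.50 ± 0.12 (0.1). Those 3 genes had unadjusted p-values of 0.00927, 0.00893 and 0.00234. For Atf3, whose 3 arrays spanned 7.95 to 10.00, the difference was -0.79 ± 0.49 (0.506). Without the 5 h array Fos differed by 0.41 and Atf3 by -1.40, and Atf3 by -0.37 without 7 h and -0.45 without 1 h. Hepatocyte markers were lower in 9 of 9 (1 called, median -0.29) and nuclear long RNAs in 4 of 4 (0 called, median -0.48), and their part was not tested. The 93 genes called among all were 0 without the 7 h array. The Fos arrays at 5 to 7 h, at 8.23 to 9.28, all lay above those of IL-6, and the 3 Jun arrays all lay below. How many of all genes separated in this way was not counted, and neither gene was called. HGF and time change together here and cannot be told apart.

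In IL-6 plus HGF against control at 8, 12 and 24 h, 2 of the 8 genes were higher and 1 lower, at 9% of all genes called. Junb was 2.35-fold higher, at a mean of 9.92 against 8.69 (1.23 ± 0.09 log2, SE, 3 pairs, adjusted p = 0.00194), with pair differences of 1.35, 1.01 and 1.33. Fosl2 was 1.57-fold higher, at 8.72 against 8.07 (0.65 ± 0.09, adjusted p = 0.0115), with pairs at 0.83, 0.66 and 0.46. Its second probe set differed by -0.03 (adjusted p = 0.896 over all probe sets). Jun was 1.24-fold lower, at 9.74 against 10.05 (-0.31 ± 0.07, adjusted p = 0.0478). Its pairs were at -0.27, -0.31 and -0.35 and its second probe set at -0.36 (0.0569 over all probe sets). The Jun call was lost without any 1 of the pairs (adjusted p = 0.133 to 0.169) and after quantile normalization (0.071), and those of Jun and Fosl2 without the hour as a block (0.467 and 0.152).

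**Figure D3:**
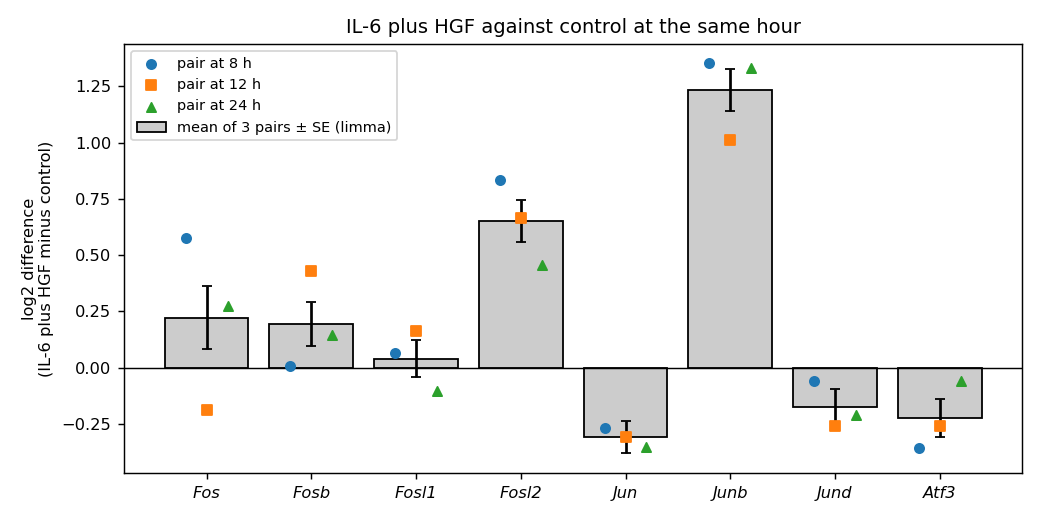
Log2 difference of IL-6 plus HGF minus control (vertical axis) for the 8 genes, with bars for the mean of the 3 matched hours, error bars for its SE and points for the pairs at 8, 12 and 24 h. Junb (1.23) and Fosl2 (0.65) are above 0 and Jun (-0.31) below it in all 3 pairs, while the Fos and Fosl1 pairs fall on both sides of 0.

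The remaining 5 genes did not pass at the matched hours. Fos differed by 0.22 ± 0.14 (adjusted p = 0.38), with 0.57 at 8 h and -0.19 at 12 h. Fosb differed by 0.19 ± 0.10 (0.283) and Fosl1 by 0.04 ± 0.08 (0.806). Jund differed by -0.18 ± 0.08 (0.227), although its dim second probe set differed by 0.24 (0.139 over all probe sets). Atf3 was lower in 3 of 3 pairs, by -0.36, -0.26 and -0.06, without passing (-0.22 ± 0.09, 0.169). On these 6 arrays all 9 hepatocyte markers lay below control (4 called lower, median -0.67). Of 15 Kupffer cell markers 14 lay below it (1 called lower, median -0.17) and 1 above it, which was called higher. Their part in the AP-1 values was not tested.

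Whether the effect of stimulation changed between the IL-6 hours and the IL-6 plus HGF hours was tested as a contrast of both effects over 17 arrays. It called 0.022% of all genes and 0 of the 8. Fosl2 had the smallest unadjusted p (0.57 ± 0.24, unadjusted p = 0.0294, adjusted p = 0.576). Junb changed effect by 0.46 ± 0.28 (0.765) and Fos by 0.08 ± 0.46 (0.987), so the larger Junb value after HGF was not separated from that with IL-6 alone.

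Over the hours since HGF, 3 of the 8 genes fell with time. The slope was -0.41 ± 0.06 log2 per doubling of the hours for Fos (SE, 8 arrays, adjusted p = 0.00716), -0.40 ± 0.04 for Fosl1 (0.00434) and -0.47 ± 0.11 for Atf3 (0.035), and 3.59% of all genes fell. That share rested on single arrays, with 653 genes falling, 91 without 24 h and 1016 without 10 h. Of 9 hepatocyte markers 4 fell and 0 had a slope above 0 (median -0.13), and their part was not tested. Jun (-0.14, adjusted p = 0.0628), Jund (-0.13, 0.0621), Fosl2 (-0.13, 0.115), Junb (-0.11, 0.328) and Fosb (-0.04, 0.732) did not pass. The Atf3 slope rested on its first array: without 5 h it was -0.20 (adjusted p = 0.0782), and its call was lost without any of the arrays at 5, 6, 8, 9, 12 or 24 h. Without 24 h Fos had -0.44 (adjusted p = 0.0515), and Fosl1 was the gene that still passed.

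Unstimulated cells drifted too. In the 5 controls Fosl1 fell by 0.33 ± 0.03 log2 per doubling of the hours plus 1 (SE, adjusted p = 0.014), Jun by 0.21 ± 0.03 (0.0245) and Fosl2 by 0.19 ± 0.03 (0.0264), at 1.47% of all genes falling (267 genes, and 9 without the control at 4 h). Fos had a slope of 0.01 ± 0.08 (adjusted p = 0.97), Junb -0.10 ± 0.07 (0.433) and Atf3 -0.19 ± 0.07 (0.184). The Atf3 value depended on the time scale and on single arrays. Per hour Atf3 passed in the controls (-0.0473, adjusted p = 0.0109) and not after HGF (-0.0704, 0.22), and without the control at 0 h its slope per doubling was -0.49 (0.0529), and without that at 24 h -0.08 (0.459). The 3 calls were lost without the control at 4 h or that at 8 h (adjusted p = 0.0543 to 0.0794), those of Jun (0.199) and Fosl2 (0.239) also without that at 0 h, and that of Fosl2 without 12 h (0.0504). The second Fosl2 probe set had -0.02 (0.89 over all probe sets).

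**Figure D4:**
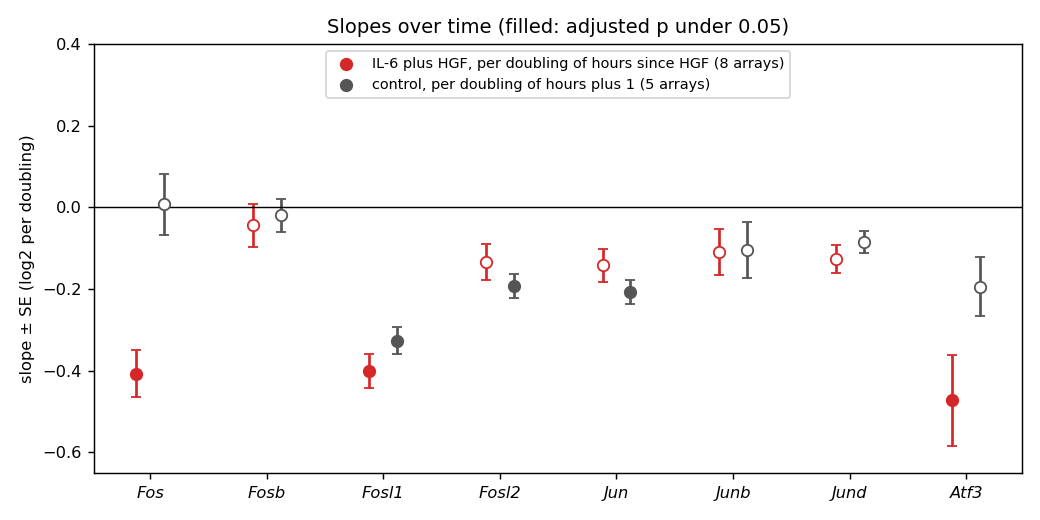
Slope over time in log2 per doubling (vertical axis, with SE) for the 8 genes, in IL-6 plus HGF per doubling of the hours since HGF (red) and in control per doubling of the hours plus 1 (grey), with filled points for adjusted p under 0.05. Fos and Atf3 are filled in red alone, Fosl1 in both, and Jun and Fosl2 in grey alone; per hour, Atf3 passes in the controls and not after HGF.

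The slopes were set against each other in 1 fit of log2 hours over the 8 IL-6 plus HGF arrays and the 4 controls from 4 h on, a comparison chosen after the values had been seen. It called 0.0989% of all genes and 0 of the 8. The Fos slope was steeper than that of the controls by -0.66 ± 0.22 (SE, unadjusted p = 0.0105, adjusted p = 0.541) and that of Fosl1 by -0.35 ± 0.12 (unadjusted p = 0.0133, adjusted p = 0.585). For Atf3 the difference was -0.30 ± 0.33 (adjusted p = 1).

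The control at -5 h, taken before the dexamethasone-free medium as far as the hours of the protocol tell, was set against the 5 later controls. None of the 8 passed, and 0% of all genes did, with 1019 of 18193 genes at an unadjusted p under 0.05. Fosl2 differed by -0.52 ± 0.30 (adjusted p = 0.838), at 7.76 against 8.27 ± 0.34 (SD, n = 5), and was 2.09-fold higher at 0 h than at -5 h. Fos differed by 0.37 ± 0.29 (0.842) and Fosl1 by 0.43 ± 0.49 (0.877). The lone array is assumed to vary like the others.

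Among the 8 genes, log2 signals were correlated pair by pair over the 17 arrays from 0 h on. Junb correlated with Fosl2 (r = 0.76) and Fos (0.72), and Fos with Fosl2 (0.65). Fosl1 correlated with Jund (0.76), Atf3 (0.71), Fosl2 (0.63), Jun (0.59) and Fos (0.53), and Jun with Jund (0.73) and Atf3 (0.57). Between Jun and Junb r was -0.30, and between Jun and Fos -0.10. These are descriptions over arrays that share 1 normalization and 1 time course.

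The 2 genes nearest to each wide-ranging member were listed by the same correlation over 17 arrays. Egr2 (r = 0.90) and Egr1 (0.86), zinc finger immediate early genes, came nearest to Fos. Tgif1 (0.95), a homeobox repressor, and Cish (0.94), a STAT-induced feedback inhibitor, came nearest to Junb. Tiparp (0.94), a mono-ADP-ribosyltransferase, and Fastkd3 (0.91) came nearest to Fosl2, and Zbtb21 (0.89) and Csrnp1 (0.87) to Atf3. For Fosl1 these were Mob3a (0.94) and Cltb (0.93), a clathrin light chain, and for Jun they were Hagh (0.92), a glyoxalase, and the cytochrome P450 gene Cyp3a25 (0.92).

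With IL-6 alone, 0 of 23 bZIP partners, 0 of 21 upstream kinases and SRF factors, 0 of 8 genes of AP-1 stability and repression, 0 of 27 AP-1 target genes and 0 of 23 other immediate early genes passed in limma. The smallest p-values in these lists belonged to Bach1 (0.36), Elk4 (-0.23), Det1 (-0.16), Ccl2 (-0.55) and Gadd45g (0.59), all with adjusted p = 1. At an unadjusted p under 0.05 there were 656 of 18193 genes. At 5 to 7 h against the IL-6 hours, 0.511% of all genes were called, and 3 of 27 AP-1 target genes were higher. These were the cytokine gene Lif by 1.22 (adjusted p = 0.0217), the metalloproteinase inhibitor gene Timp1 by 0.92 (0.0217) and Il24 by 0.71 (0.0242). Without the 7 h array 0 of all genes were called there, so these 3 calls were lost. At the matched hours 461 of all 18193 genes were called higher than control and 1176 lower. Of 27 AP-1 targets 7 were higher and 1 lower, with a median of 0.11 against 0.01 over all genes. Timp1 (2.27), Il24 (2.22) and the sphingosine kinase gene Sphk1 (1.25) had the largest differences. Among 23 other immediate early genes 5 were higher and 1 lower (median 0.19), led by the ERK phosphatase gene Dusp5 (1.17), Ier3 (0.76) and Gadd45g (0.65).

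At the matched hours 9% of all genes were called, and the calls in 3 lists of partners and upstream factors were set beside that share. Whether any of these lists differed from it was not tested. Of 23 bZIP partners and relatives 1 was higher, the small MAF gene Maff (0.40, adjusted p = 0.0424). Another was lower, Nfe2l2 (-0.80, 0.00512), which encodes the antioxidant regulator NRF2. Of 21 upstream factors 2 were higher, among them the SRF partner Elk3 (0.38, 0.0424). A further 2 were lower, the SRF coactivator Mrtfb (-0.62, 0.0127) and the stress kinase Map3k5 (-0.56, 0.0147). Fhl2, a cofactor of JUN and FOS proteins, was higher by 0.45 (0.0323), 1 of 8 in its list. The medians of these 3 lists were 0.01, 0.04 and -0.02.

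Over the hours since HGF, 9 of 23 other immediate early genes fell and 0 rose, against 3.59% of all genes falling. Egr1 had a slope of -0.53 (adjusted p = 0.0117), Egr2 -0.48 (0.0119) and Dusp5 -0.47 (0.00483), and the median of that list was -0.18 against -0.003 over all genes. Srf, which encodes the factor that binds the CArG box, fell with -0.29 (0.00698) after HGF and with -0.34 (0.0224) in the controls. In the controls 5 of these 23 genes fell and 0 rose, against 1.47% of all genes falling, Dusp5 among them (-0.39, 0.00647).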

How the data were processed

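Per the labels' protocols, RNA of 18 samples was labelled with biotin in 1 cycle and read on 1-colour Affymetrix arrays. The values are log2 expression signals as deposited. How the authors summarized and normalized them is not given in the sources used here. Once sorted, no array strayed by more than 0.118 from the average array, so they were not scaled again. Groups came from stimulus and hour in the labels, with 0 columns left over.

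Of 45101 probe sets 64 were array controls, 34958 had 1 gene symbol, 932 several and 9211 none. The annotation table was brought up to date through Entrez identifiers in RefSeq (34754 probe sets, 0 symbols changed, and 204 kept). A gene was represented by its brightest probe set on average. Fits used limma 3.58.1 in R 4.3.3 over all 18193 genes, with the designs named beside each result, and other tables used Python 3.11.15 with pandas 2.3.3. The matched hours had the hour as a block. Fits were tested on simulated data with known changes. Those data had independent arrays and no time course, so the check does not cover hours that stand in for replicates. Promoter windows and their coordinates are those of RefSeq, GRCm38.p6, available for 7 of the 8 genes.

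Named genes were all 8 members, up to 3 passing genes of each list, and the 2 genes of highest correlation for members that ranged over more than 1 log2. The members and lists were chosen with earlier results of these data known, and the steps between single arrays, the motifs, the slope difference and the control slope from 4 h on were added after the values had been seen. Alternatives were scaling, a filter at the 40th percentile, the variance model, the choice of probe sets, controls and time scale, and leaving out arrays.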

Additional observations from a re-analysis of the deposited data

Results flagged for a closer look

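Among 36 groups of arrays tested for a value far from the rest (12 probe sets in 3 groups), 2 held one, and chance flags about 1 in 20 groups. Atf3 at 5 h of IL-6 plus HGF, at 10.00, lay 1.61 log2 above the next of the 8 arrays. Fosl2 at 1 h of IL-6, at 9.12, lay 0.47 above the next of the 4.

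Atf3 and Jund were above the mean of the early controls on all 4 IL-6 arrays and below control in all 3 later pairs. The tested change of effect was -0.72 for Atf3 (adjusted p = 0.872) and -0.0924 for Jund (adjusted p = 0.943), and neither passed in limma. That contrast came from the 17-array fit, which set all IL-6 plus HGF arrays against the later controls without pairing hours. In that fit the later difference was positive, 0.15 for Atf3 and 0.0139 for Jund. The contrast therefore did not test the opposite directions seen in the pairs. The share of all genes with this pattern was not counted.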

How the results depend on the processing

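No paired analysis was possible because the labels number no replicates, but the hour paired arrays at the matched hours. Without the hour as a block 1 of the 8 genes passed there (Junb) in place of 3. The Jun call also went over all probe sets (adjusted p = 0.0782) and in the 17-array fit (0.401), and leaving out a pair left 2 calls each time. With IL-6 alone 1 gene passed (Junb) in the fit without the later arrays and with the hour as a covariate, and 0 in the main design. For the slope after HGF 5 genes passed with dim genes left out, 1 without the 24 h array, 1 to 5 with 1 array left out, and 0 as a difference to the controls. For the controls' slope 0 passed from 4 h on and 0 to 3 with 1 array left out (1 without 0 h, 0 without 4 h or 8 h). Among all genes, called numbers at the matched hours were 585 to 843 with a pair left out against 1637. The share called there was 0.781% with no hour block, against 9% with it.

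The following values, none of which passed, changed sign. Against all 5 controls the IL-6 differences were 0.32 for Fosl1 and 0.26 for Jun. At the matched hours the 17-array fit gave 0.15 for Atf3 and 0.0139 for Jund, and the mean of probe sets -0.0241 for Fosl1 and 0.0337 for Jund. The Fosb slope difference to control was 0.0181. The Fos control slope was -0.0036 after quantile normalization, -0.0509 from 4 h on and -0.0086 per hour, and that of Junb 0.0627 from 4 h on. With 1 array left out, the IL-6 differences ranged from -0.0243 to 0.12 (Fosb), -0.52 to 0.10 (Fosl1), -0.0723 to 0.40 (Fosl2), -0.33 to 0.23 (Jun) and -0.0023 to 0.21 (Jund). Matched Fosl1 ranged from -0.0202 to 0.11, and the change of effect from -0.16 to 0.25 (Fos), -0.45 to 0.11 (Jun) and -0.20 to 0.0163 (Jund). Fosl2 at 5 to 7 h ranged from -0.0242 to 0.25, Jun at -5 h from -0.14 to 0.11, and control slopes from -0.0666 to 0.12 (Fos), -0.0854 to 0.0037 (Fosb) and -0.15 to 0.0642 (Junb). The cause of these shifts was not tested. Of the other alternatives 372 values kept direction and call, 18 lost a call, 8 gained one and 11 changed sign. With 1 array or pair left out these numbers were 364, 19, 4 and 21. Most values were not called in the main fits, and those that stayed uncalled count as kept. Fosb and the second Jund probe set, below the array median, limit what dim signal can show.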
